A study of Solanum lycopersicum with 18 samples.

Results

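In the fruit of the tomato mutant Colorless non-ripening (Cnr), 713 m6A peak regions were more enriched than in wild-type fruit at both ripening stages studied, while wild type itself kept about the same mean enrichment at these stages. They were taken from 7836 regions with a peak in all 9 peak lists of the study. Peaks that shared at least 1 bp over the 9 lists were merged, and the highest fold enrichment of each list was its value in a region. In a chosen region every Cnr value lay above all 6 wild-type values, the Cnr mean was at least 1.5 times each wild-type group mean, and the wild-type mean at 39 days post-anthesis (DPA) lay no more than 15% below or 18% above that at 42 DPA. The regions were chosen by the fold enrichment of all 9 lists, so the enrichment values below are a description and carry no test.

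N6-methyladenosine (m6A) is a methyl mark that a writer complex places on adenosines inside messenger RNA. AlkB-type demethylases erase it, and proteins of the YTH family read it and can change how long a transcript lasts or how it is spliced and translated. In plants and animals the mark is found mostly near stop codons and in 3′ untranslated regions (UTRs). Tomato fruit lose DNA methylation as they ripen, and Cnr fruit, which keep it, stay firm and do not turn red.

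The fruit were pericarp tissue of Solanum lycopersicum cv. Ailsa Craig. The groups were wild type at 39 DPA (mature green stage), wild type at 42 DPA (breaker stage) and Cnr at 42 DPA, with 3 m6A-seq replicates each. Cnr is a natural epimutation of an SBP-box gene in this cultivar, and no transgene or treatment was used in any group. Cnr was sampled at 42 DPA only, so its comparison with wild type at 39 DPA cannot tell genotype and fruit age apart. At 42 DPA wild type was at the breaker stage, while Cnr fruit do not ripen. Genotype and ripening state cannot be told apart in that comparison. Each replicate was an immunoprecipitated (IP) library from an independently prepared mRNA sample with its own input library. Pericarp is a mixture of cells, and a change in the share of a cell type and a change within cells cannot be told apart in such samples. The lists hold peaks only, so neither the tissue label nor the transcript of the epimutated gene was checked here.

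The lists held 9246 to 10407 peaks, and merging gave 12119 regions in all. The fold enrichment of a peak is the number of IP fragments at its summit plus 1, over the local background from the input plus 1. The background never fell under a floor of 44.6 to 51.1 fragments that was set by the depth of each library. Where IP fragments or background are compared between groups below, each was first divided by the floor of its library. Small differences can depend on this division. Enrichment was higher in Cnr over the whole set, with a median log2 difference of 0.36 from wild type at 42 DPA and of 0.31 from wild type at 39 DPA. The Cnr mean lay above both wild-type means in 76.5% of the 7836 regions. Cnr replicate 2 stood apart from the other Cnr libraries, since its enrichment was lower than in replicate 1 by a median of 0.28 and lower than in replicate 3 by a median of 0.36 on the log2 scale over all regions.

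The complete rule was met by 9.1% of the 7836 regions. Every Cnr value lay above all 6 wild-type values in 34.2% of all regions and below all of them in 2.97%. Taken by stage, every Cnr value lay above those at 42 DPA in 48.3% and above those at 39 DPA in 45.6%. The Cnr mean reached 1.5 times both wild-type means in 13.5%, and the wild-type means lay within the band in 66.3%. Among the 992 regions that met both Cnr conditions (12.7%), the band kept 71.9%, a share near that among all regions. Of the 279 regions it removed, 195 were higher in wild type at 39 DPA and 84 were lower.

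In the 713 regions the median group mean of the fold enrichment was 5.78 in wild type at 39 DPA, 5.74 in wild type at 42 DPA and 10.5 in Cnr. In the other 7123 regions these medians were 6.93, 6.61 and 8.36. The chosen regions thus lay lower than the rest in wild type and higher than the rest in Cnr, which the rule favours. The Cnr mean divided by the higher wild-type mean, called the ratio from here on, had a median of 1.65 and quartiles of 1.57 and 1.79, and ran from 1.5001 to 3.36. Over all 7836 regions the median ratio was 1.19. The ratio reached 2 in 68 of the 713 regions and 2.5 in 10.

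**Figure D1:**
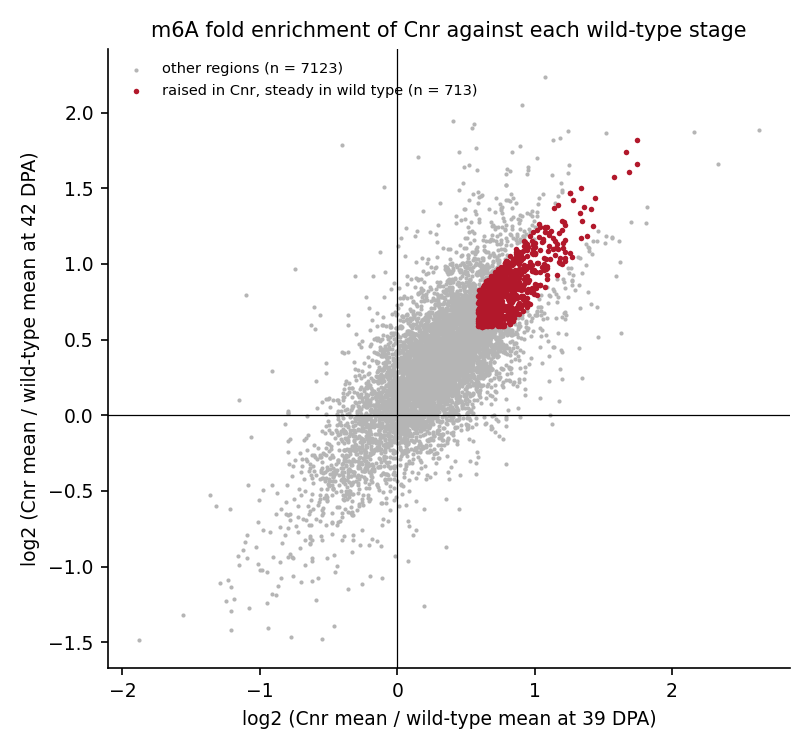
Each point is a region with a peak in all 9 lists; the axes give the log2 ratio of the Cnr group mean to the wild-type mean at 39 DPA (horizontal) and at 42 DPA (vertical). The 713 chosen regions (dark red) form the part of the cloud near the diagonal above the fold minimum, and the whole cloud is shifted to positive values, with medians of 0.31 and 0.36.

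The gap between the groups was narrow in most of the regions. The lowest Cnr value divided by the highest wild-type value had a median of 1.24, with quartiles of 1.15 and 1.36. It was under 1.1 in 108 of the 713 regions, at least 1.5 in 71 and at least 2 in 5. The regions with a gap of at least 2 were in Solyc09g008940 (2.43), Solyc07g018000 (2.40), Solyc01g087600 with Solyc01g087610 (2.25), Solyc01g094660 (2.16) and Solyc06g008290 (2.07).

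The edge of the gap was set by a few libraries. Over the 713 regions the median fold enrichment in wild type at 39 DPA was 5.60, 5.54 and 6.24 in replicates 1 to 3, and at 42 DPA it was 5.94, 5.99 and 5.17. In Cnr it was 10.8, 8.54 and 11.8. Cnr replicate 2 was the lowest of the Cnr libraries in 682 of the 713 regions, and replicates 1 and 3 of Cnr lay close together. On the wild-type side the highest value came from replicate 3 at 39 DPA in 312 regions, and from replicate 3 at 42 DPA in 1. The median absolute log2 difference between Cnr libraries was 0.36 for replicates 1 and 2, 0.46 for 2 and 3, and 0.11 for 1 and 3. Between wild-type libraries of a stage it was 0.12 to 0.21. Counting error at these summits alone corresponds to a difference of 0.053 to 0.073.

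The steadiness between the wild-type stages was a property of the group means and not of each replicate number. The 3 values at 39 DPA and the 3 at 42 DPA overlapped in 678 of the 713 regions (95.1%) and in 69.2% of the other regions. The rule asked for close wild-type means, so a higher share of overlap was built into the choice. The value at 39 DPA divided by that at 42 DPA had a median of 0.94 among replicates 1, 0.94 among replicates 2 and 1.21 among replicates 3. In the other regions these medians were 0.95, 0.95 and 1.22. The 39 DPA value was thus the higher among replicates 3 in 667 of the 713 regions, but in only 210 among replicates 1 and 222 among replicates 2, and the means of the opposite shifts met near 1. The numbers are labels of libraries and need not pair them.

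The same rule was then applied to 2 replicate numbers of each group and the regions it chose were read in the remaining number, which the choice had not used. With replicate 1 held out, 627 regions were chosen, and the Cnr value lay above both wild-type values in 100% of them, against 78.6% of all regions. It was at least 1.5 times both in 74.3%, against 17.9% of all regions. With replicate 3 held out, 481 regions were chosen, the Cnr value lay above both wild-type values in 100% (all regions 81.5%) and reached 1.5 times both in 91.5% (all regions 24.1%). With replicate 2 held out, 1235 regions were chosen, and the shares were 89.3% (all regions 49.1%) and 12.8% (all regions 4.5%). The size of the Cnr difference was therefore smaller in replicate 2, with a median of 1.21 times the higher wild-type value, than in replicate 1 with 1.67 or replicate 3 with 1.79. Over all regions the same medians were 0.996, 1.22 and 1.27. These shares come from 1 library a group and carry no test.

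The wild-type band was read in the held-out number in the same way. The held-out wild-type value at 39 DPA lay within these limits of that at 42 DPA in 67.9% of the chosen regions for replicate 1 (all regions 59.1%) and in 70.9% for replicate 2 (all regions 59.8%). For replicate 3 it was 25.2%, below the 38.8% of all regions, with a median of 1.298 for the value at 39 DPA over that at 42 DPA.

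**Figure D2:**
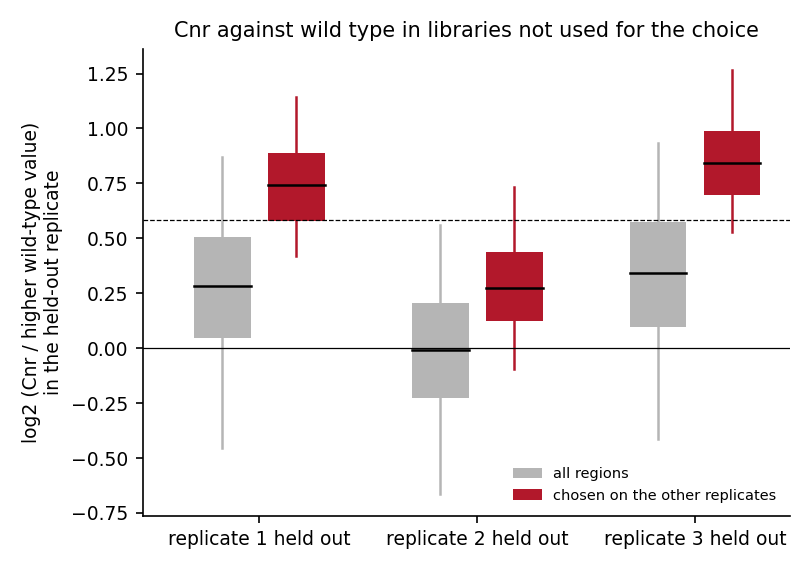
The vertical axis is the log2 ratio of the Cnr value to the higher of the 2 wild-type values in a replicate that the choice did not use; boxes span the quartiles, black lines are medians, whiskers run from the 5th to the 95th percentile, and the dashed line marks 1.5-fold. The chosen regions (dark red) lie above all 7836 regions (grey) in each replicate, but most of them reach the dashed line only in replicates 1 and 3.

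The thresholds cut through a continuous range. The members nearest to the fold minimum were in Solyc01g112305 with Solyc01g112310, Solyc09g091500 and Solyc08g008510, with ratios of 1.5001, 1.5005 and 1.501. The regions just outside it were in Solyc12g043120, Solyc04g047720 with Solyc04g047727, and Solyc11g017420, with ratios of 1.4992, 1.4982 and 1.4981. A further 1244 regions had every Cnr value above all wild-type values and lay within the band, but had a smaller ratio. At the lower limit of the band a region with no gene on chromosome 12, Solyc07g055530 and Solyc02g032450 lay inside, with a wild-type mean at 39 DPA of 0.8502, 0.8509 and 0.8516 times that at 42 DPA, and Solyc10g006090, Solyc04g081900 and Solyc04g071630 lay outside with 0.8489, 0.8488 and 0.8477. At the upper limit Solyc01g068210, Solyc03g007680 and Solyc05g015520 lay inside, with 1.1797, 1.1792 and 1.1788. Solyc04g016550, Solyc05g013790 and Solyc10g062340 lay outside, with 1.1818, 1.1828 and 1.1828. In 52 regions the means and the band fitted the rule but the groups overlapped, and in all 52 Cnr replicate 2 was the only Cnr library that was not above all wild-type values. The overlap could also come down to a single wild-type library, which was replicate 1 at 39 DPA in 10 of the 52, replicate 1 at 42 DPA in 9 and replicate 3 at 39 DPA in 6.

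The largest ratio was in a region that began in a 3′ UTR and touched Solyc01g087600 and Solyc01g087610, on chromosome 1 from 82433956 to 82434418. Positions are those of the deposited lists on genome build SL3.0 with annotation ITAG3.2, and no source used here states whether starts count from 0 or 1. Its fold enrichment was 4.62, 4.05 and 4.60 in wild type at 39 DPA, 4.65, 3.87 and 4.09 in wild type at 42 DPA, and 15.9, 10.5 and 18.2 in Cnr. The wild-type libraries all lay within a narrow range and the lowest Cnr library was still more than any of them by 2.25 times. The means were 4.42 ± 0.33, 4.20 ± 0.41 and 14.8 ± 3.94 (SD, n = 3 each), a ratio of 3.36. The strand of the peaks was not in the lists, so the signal cannot be divided between genes that touch the same region.

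Solyc07g018000 carried its region over the stop codon, on chromosome 7 from 8781644 to 8782017. The values were 2.55, 3.45 and 3.75 at 39 DPA, 3.59, 3.81 and 2.91 at 42 DPA, and 11.8, 9.13 and 11.7 in Cnr. The stages overlapped and the Cnr mean of 10.9 ± 1.52 (SD, n = 3) was 3.17 times the higher wild-type mean. In Solyc01g094660, also over the stop codon (chromosome 1, 85987853 to 85988296), enrichment was high in every library. It was 6.56, 7.04 and 7.91 at 39 DPA, 8.12, 6.96 and 7.58 at 42 DPA, and 24.9, 17.6 and 26.7 in Cnr. Its ratio of 3.05 was thus reached from a wild-type level above the median of the chosen regions. Solyc09g008940 (chromosome 9, 2337108 to 2337545) had the least variable Cnr values of these 4 regions. They were 8.71, 7.72 and 9.20, against 2.69, 2.72 and 3.18 at 39 DPA and 2.89, 3.07 and 2.64 at 42 DPA, a ratio of 2.98. No description of these genes was in the sources used here.

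Among the 12 regions with the largest ratio, 4 touched no annotated gene. They lay on chromosome 8 (52597643 to 52598007, ratio 3.18), chromosome 9 (18316936 to 18317294, 2.57), chromosome 11 (4596130 to 4596472, 2.51) and chromosome 1 (82246482 to 82246917, 2.43). In the region on chromosome 8 the Cnr values were 14.3, 8.36 and 17.1, while wild type had 5.51, 2.91 and 4.06 at 39 DPA and 4.17, 3.68 and 4.03 at 42 DPA. The mature green libraries of this region were scattered, with an SD of 1.302 on a mean of 4.16. The region on chromosome 9 was tighter, with 3.34 ± 0.46 at 39 DPA, 3.30 ± 0.11 at 42 DPA and 8.57 ± 1.298 in Cnr (SD, n = 3 each). All 4 had a background on the floor in every list, so little input was seen there in any group and the IP fragments alone set the enrichment. Differences in input under the floor were not seen. Of the 713 regions, 23 touched no gene in any list.

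The described genes among these 12 belong to different functions. A region on chromosome 7 (67917806 to 67918631) that began in a 3′ UTR touched Solyc07g066310, a photosystem II 10 kDa polypeptide family protein of the thylakoid, and Solyc07g066320, described as recA, a protein of DNA repair. Its values were 2.49, 2.77 and 2.49 at 39 DPA, 2.62, 2.77 and 2.35 at 42 DPA, and 7.97, 5.34 and 7.67 in Cnr, a ratio of 2.71. The background was lower in Cnr there, by 2.68 on the log2 scale from wild type at 42 DPA and by 1.73 from 39 DPA. It was on the floor in 3 of the 9 lists, and the top summits lay up to 476 bp apart between lists. These values thus need not come from the same site. With the summit of the highest −log10 p in each list, the log2 ratio was 1.22 instead of 1.44. Solyc06g008290, homologous to vacuolar protein sorting-associated protein 2, a subunit of the ESCRT machinery that bends membranes, had means of 4.22 ± 0.68, 3.77 ± 0.43 and 10.7 ± 0.92 (SD, n = 3 each) over its stop codon, a ratio of 2.53. A long region on chromosome 9 (3646818 to 3647996) touched Solyc09g010260, Solyc09g010270 and Solyc09g010280, described as trichome birefringence proteins, a family that acetylates cell wall polymers, and a LETM1-like protein. Its ratio was 2.58, and the lists most often placed it inside the coding sequence. Solyc12g009440, a DnaJ chaperone, a class of proteins that passes unfolded proteins to Hsp70, had 5.52, 5.95 and 6.20 at 39 DPA, 6.47, 6.60 and 5.39 at 42 DPA, and 14.7, 12.9 and 17.3 in Cnr. Its ratio of 2.43 was the largest among regions whose background lay above the floor in all 9 lists.

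**Figure D3:**
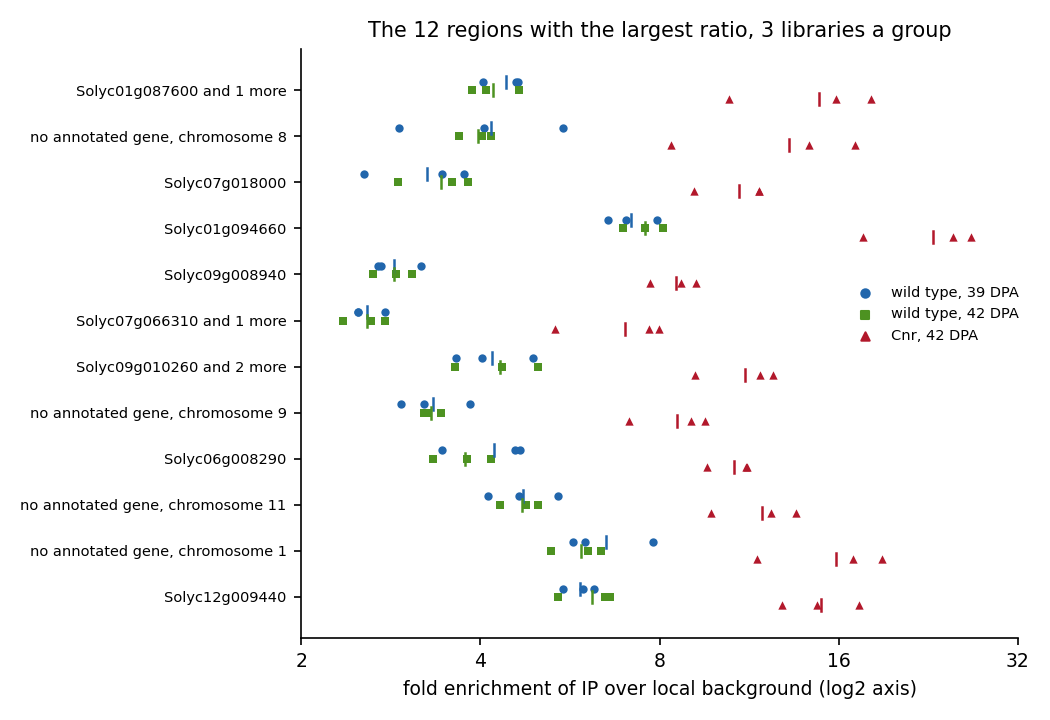
Fold enrichment of the 12 regions with the largest ratio, on a log2 axis; each symbol is a library (circles, wild type at 39 DPA; squares, wild type at 42 DPA; triangles, Cnr at 42 DPA; 3 each) and short bars are group means. The wild-type stages lie over each other in each row and the triangles lie to the right, with Cnr replicate 2 the lowest of the triangles in all 12.

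Most of the chosen regions lay where m6A peaks lay in general. In 353 regions (49.5%; other regions 51.6%) the peak ran over the stop codon and ended in the 3′ UTR, and in 105 (14.7%; other regions 14.7%) it ran over the stop codon past the end of the annotated gene. It began in the 3′ UTR in 175 regions (24.5%; other regions 21.2%), was centred on an intron in 41 (5.75%; other regions 5.14%) and was most often placed outside annotated genes in 26 (3.65%; other regions 3.29%). Peaks inside the coding sequence were few among the chosen regions, with 4 (0.561%; other regions 2.33%), as were those that began upstream of the transcript, with 3 (0.421%; other regions 1.45%). The 5′ UTR held 6 (0.842%; other regions 0.365%). Over all regions the median ratio was 0.965 for peaks inside the coding sequence and 1.197 for those that ran over the stop codon into the 3′ UTR.

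The regions were spread over the chromosomes, from 7.13% of the regions on chromosome 7 to 10.7% on chromosome 9, with 4 of 24 on unplaced sequence. Their share was lower where the wild-type level was higher. With the regions ordered by the mean of the wild-type means and cut into 4 equal groups, it was 11.6% in the lowest group, 10.2% and 9.09% in the next, and 5.56% in the highest. The median ratio of all regions in these groups stayed between 1.163 and 1.1998. The rule compares Cnr with the same wild-type values that order these groups, so the trend can be built into the choice and has no test.

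Peaks were wider in Cnr in most of the chosen regions, while their summits moved little. The median peak width was 340 bp in the chosen regions and 352 bp in the others. The Cnr peaks were wider than the wild-type peaks in 643 of the 713 regions and in 4602 of the 7123 others. The median difference was 38.0 bp over the 713 and 8.83 bp over the others. In the raised regions outside the band it was 55.2 bp (195 higher at 39 DPA) and 55.9 bp (84 lower). The rule selects a higher enrichment in Cnr, so wider Cnr peaks can be built into the choice, and this was not tested. The distance had a median of 8.5 bp between the median summit of Cnr and that of wild type (others 7.5 bp), and it was at most 10 bp in 430 regions (60.3%; other regions 65.9%). Several summits in a list were found in 48 regions (6.73%; other regions 5.97%) and more than 1 gene in 93 (13.04%; other regions 14.61%).

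A peak can become more enriched through more IP fragments or through less input, and the p-value of a summit together with its enrichment gives back both numbers. The background lay on the floor in all 9 lists in 331 of the 713 regions (46.4%; other regions 26.4%). There the enrichment followed the IP fragments alone. Relative to the floor, these were higher in Cnr by medians of 0.84 and 0.78 on the log2 scale against wild type at 42 and 39 DPA. Input differences under the floor are hidden, so more RNA in Cnr and more m6A per transcript cannot be told apart in these regions. In the other regions on the floor these medians were 0.37 and 0.29, and for the chosen regions the fold minimum of the rule fixes how small they can be. The background was above the floor throughout in 215 regions (30.2%; other regions 49.1%), and in 167 it was mixed. Before division by the floor, the lowest IP number at a summit of any chosen region was 87. The median over regions of the lowest of the 9 numbers was 328, and the lowest −log10 q was 3.52.

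In the 215 regions above the floor, the background was lower in Cnr than at 42 DPA in 193 (89.8%; other regions above the floor 51.2%) and lower than at 39 DPA in 204 (94.9%; other regions 53.6%). The median log2 difference was -0.50 and -0.64, against -0.014 and -0.039 in the other regions. The IP fragments differed by medians of 0.25 and 0.16, close to the 0.30 and 0.25 of the other regions. In 97 of the 215 (45.1%; other regions 14.4%) the background was lower and the IP number higher than at both wild-type stages, and in 55 (25.6%; other regions 16.3%) both numbers were lower. In 26 (12.1%; other regions 51.0%) the IP number was higher than at both stages and the background was not lower than at both. The rule selects a high ratio of these numbers, so a low background among the chosen regions is in part built into the choice and has no test. The background stands for the input RNA around a summit, and expression tables were not used here.

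**Figure D4:**
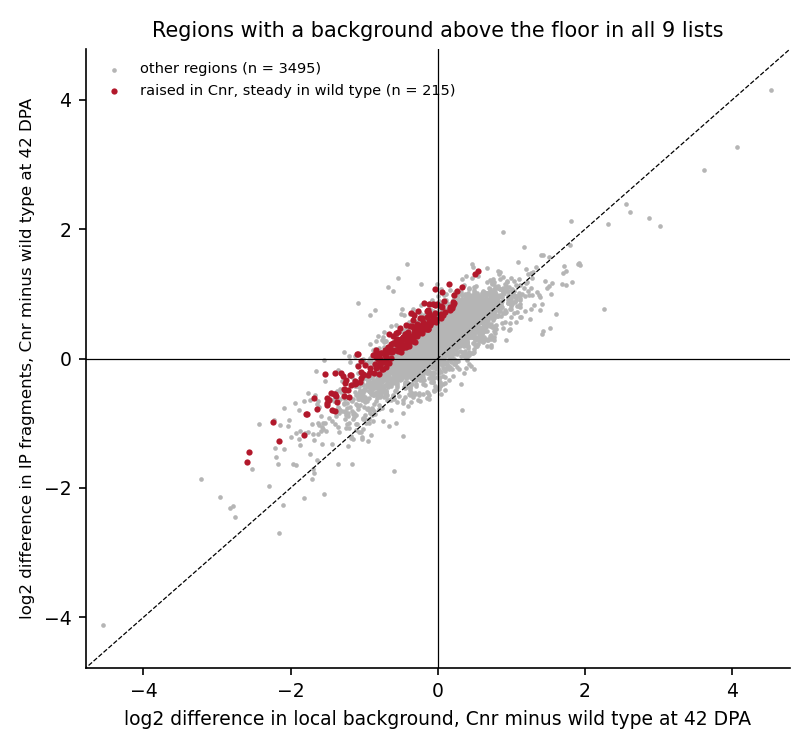
Regions whose background lay above the floor in all 9 lists, with the log2 difference of Cnr from wild type at 42 DPA in local background (horizontal) and in IP fragments at the summit (vertical), both taken relative to the floor of the library; the dashed line marks equal change. The 215 chosen regions (dark red) lie above the dashed line by the rule, and 193 of them lie left of zero, with a median of -0.50.

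Chaperones were among the members in which both numbers were lower in Cnr. Solyc12g009250, described as a chaperonin, had a background lower by 2.16 and an IP number lower by 1.28 on the log2 scale than wild type at 42 DPA. Its enrichment was 3.62 ± 0.19 at 39 DPA, 3.31 ± 0.54 at 42 DPA and 6.03 ± 0.89 in Cnr (SD, n = 3 each). The beta subunit of chaperonin-60, which folds proteins in plastids (Solyc01g028810), had 4.53 ± 0.25, 4.09 ± 0.53 and 7.79 ± 0.83, with a background difference of -1.79 and an IP difference of -0.85. The 10 kDa chaperonin, the lid of such folding cages (Solyc01g088610), had 6.55 ± 1.70, 6.65 ± 1.15 and 10.1 ± 0.85, with differences of -1.82 and -1.19. The description of 6 of the chosen regions matched chaperone or heat shock terms, with ratios of 1.52 to 2.43. Besides these and the DnaJ protein they were an activator of the 90 kDa heat shock ATPase (Solyc10g078930, 1.78) and a DnaJ protein with Sec63 Brl domains (Solyc11g071260, 1.56), whose background differed by only -0.14 from wild type at 42 DPA.

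The other leading regions above the floor had background differences of -1.04 to -2.57. A region on chromosome 7 (65471770 to 65472626) touched a malate dehydrogenase gene (Solyc07g062650) and the bromodomain transcription factor GTE4 (Solyc07g062660). It had 4.29 ± 0.22, 4.25 ± 0.61 and 9.24 ± 1.33 (SD, n = 3 each) and a ratio of 2.16. Its top summits lay up to 491 bp apart between lists. These values and its background difference of -2.57 thus need not come from the same site. With the summit of the highest −log10 p in each list, the log2 ratio was 0.682 instead of 1.108. Solyc03g098230, described as 1-aminocyclopropane-1-carboxylate (ACC) deaminase or D-cysteine desulfhydrase, had 6.9996, 8.52 and 8.10 at 39 DPA, 7.20, 8.05 and 6.66 at 42 DPA, and 16.4, 13.5 and 19.3 in Cnr. ACC is the direct precursor of ethylene, the hormone that drives ripening in tomato. The description does not settle which of these activities the gene has. The ratio was 2.08 with every Cnr value far above wild type. From wild type at 42 DPA its background differed by -1.10 and its IP number by 0.063, and from 39 DPA by -0.48 and 0.57. Riboflavin kinase/FMN hydrolase (Solyc02g079100), which makes the cofactor FMN, had 6.95 ± 0.67, 6.53 ± 0.35 and 14.5 ± 1.52, a ratio of 2.08. A region near Solyc05g007080, which the lists most often placed outside genes, had a ratio of 2.33. An RNA binding protein-like gene (Solyc05g053780) had low values that lay close together in wild type, 1.94 ± 0.056 and 2.24 ± 0.21, and 4.54 ± 0.91 in Cnr, a ratio of 2.03. The largest background difference of the 215 was in Solyc09g010930, an NAD(P)-binding protein, with -2.59 from wild type at 42 DPA and an IP difference of -1.602.

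In some regions above the floor the IP number differed more than the background from wild type at 42 DPA. Golgin candidate 4 (Solyc01g095210), a protein of the Golgi apparatus, had a background difference of -0.044 and an IP difference of 1.08 from wild type at 42 DPA, and of -0.26 and 0.73 from 39 DPA. MAP kinase kinase kinase 3 (Solyc01g059860), a signalling kinase, had 9.39, 9.998 and 10.4 at 39 DPA, 9.30, 10.3 and 7.98 at 42 DPA, and 19.8, 15.7 and 19.6 in Cnr. Its IP number was higher by 1.15 than at 42 DPA with a background higher by 0.15. Against 39 DPA the background differed more than the IP number, with -0.54 and 0.35. The largest IP difference above the floor was in Solyc07g005590 with Solyc07g005595, at 1.35 from wild type at 42 DPA with a background higher by 0.55, and at 0.97 and 0.37 from 39 DPA.

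In the list of 46 ripening, DNA methylation and AlkB genes, 22 regions had a peak in all 9 lists and 2 of them were members, which is the 9.1% found among all regions, while 16 genes had no region. FUL2 (Solyc03g114830) encodes a FRUITFULL-like MADS-box factor of the fruit ripening network, and its region ran over the stop codon into the 3′ UTR on chromosome 3 from 66183197 to 66183564. Its values were 5.26, 4.48 and 4.93 at 39 DPA, 5.14, 5.86 and 3.57 at 42 DPA, and 8.17, 7.63 and 8.01 in Cnr. The wild-type libraries at 42 DPA were scattered and the Cnr libraries were close to each other, with means of 4.89 ± 0.39, 4.86 ± 1.17 and 7.94 ± 0.28 (SD, n = 3 each) and a ratio of 1.62. The background was lower in Cnr by 1.12 and 1.41 on the log2 scale than at 42 and 39 DPA, and the IP number was lower by 0.37 and 0.70. A second MADS-box gene, Solyc07g052700, described as AGAMOUS-like, was more enriched in every library, with 14.2 ± 2.36, 12.4 ± 1.31 and 22.3 ± 2.47 (SD, n = 3 each).

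NR, an ethylene receptor (Solyc09g075440), SlDML2 (Solyc10g083630) and SlDML3 (Solyc11g007580), DNA demethylases, and zeta-carotene desaturase (Solyc01g097810), an enzyme of lycopene synthesis, met the Cnr conditions but not the band. Their wild-type mean at 39 DPA was 1.27, 1.26, 1.32 and 1.28 times that at 42 DPA, so they belonged to the 195 regions that were higher at the earlier stage. Their ratios were 2.28, 1.86, 1.51 and 1.78. SlDML2 had 5 regions, and these values are of the one over its stop codon. Those near 63534100 and 63536000 on chromosome 10 had a peak in all 6 wild-type lists and in no Cnr list. Their enrichment was 1.59 to 1.90 and 2.34 to 2.63. That near 63539300 had a peak in 7 lists, with Cnr replicate 2 the only Cnr list, and that near 63538800 in 1 wild-type list. Of the 8 AlkB homologues, SlALKBH1, SlALKBH3 and SlALKBH5 had a region in all 9 lists, with ratios of 1.21, 0.920 and 0.959, and none was a member. SlALKBH2 (Solyc01g104130), a demethylase of m6A, had a peak in the 3 Cnr lists, with 4.18, 3.40 and 4.39. It had none in the 6 wild-type lists, so that no ratio can be given. A similar pattern was seen in SlALKBH4, with 4.52, 4.75 and 4.16 in Cnr and 1 wild-type list at 2.23. The first region of SlALKBH6 also had a peak in the 3 Cnr lists and in 1 wild-type list. There Cnr replicate 2, at 2.74, lay below the wild-type value of 3.03. The second region of SlALKBH6 had a peak in the 3 Cnr lists and the 3 lists at 39 DPA. SlALKBH7 and SlALKBH8 had no region. The other member from the ripening list was a region of chromosome 10 (63510488 to 63510854) in Solyc10g083600 and Solyc10g083610, which began in a 3′ UTR and had 2.25 ± 0.24, 2.40 ± 0.63 and 3.67 ± 0.42 (SD, n = 3 each). The list was written by hand, and since no source used here ties a name to Solyc10g083610 the gene is given by its ID.

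Gene descriptions were at hand for 177 of the 713 regions and 205 of their 786 genes. They came from the study's tables of called transcripts, so the counts below say which kinds of gene occur and not how common they are. The kinds named most often were ribosome and translation, with 15 regions, RNA binding and processing, with 13, and the ubiquitin pathway, with 12. Transcription factors followed with 10 and kinases with 8, and 95 described regions matched no group.

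The ribosome and translation group had ratios of 1.54 to 2.004. Ribosomal protein S8 (Solyc03g121370) led it, with 5.17, 5.45 and 5.59 at 39 DPA, 5.52, 5.05 and 4.97 at 42 DPA, and 11.2, 9.56 and 11.8 in Cnr. The wild-type libraries differed little and the Cnr libraries were about as far apart as the SD of 1.14 on their mean of 10.8. Ribosomal protein L14 was represented by 2 genes, in a region shared with a casein kinase gene (Solyc06g083820 with Solyc06g083830, 1.89) and alone (Solyc09g066430, 1.62). The neighbouring genes Solyc09g075150 and Solyc09g075160, both L22-2 of the large subunit, had 4.04 ± 0.22, 3.93 ± 0.38 and 7.34 ± 1.22 in the first and 3.71 ± 0.76, 3.71 ± 0.23 and 5.73 ± 0.68 in the second (SD, n = 3 each). Their backgrounds went opposite ways, with -1.51 and 0.84 on the log2 scale from wild type at 42 DPA. Elongation factor 1 alpha (Solyc06g069020), which brings aminoacyl-tRNA to the ribosome, had a ratio of 1.67.

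The 40S ribosomal protein S4 gene Solyc02g070330 held 3 members along chromosome 2, all centred on an intron. The region from 40669373 to 40669721 had 4.69 ± 0.85, 4.93 ± 0.86 and 9.14 ± 2.99 (SD, n = 3 each), and its Cnr replicate 2, at 5.88, was barely above the highest wild-type value of 5.87. The region from 40673301 to 40673606 had 3.09 ± 0.21, 3.03 ± 0.62 and 4.90 ± 0.53, and that from 40676303 to 40676647, which also touched Solyc02g070340, had 4.14 ± 0.59, 4.50 ± 0.98 and 6.96 ± 0.87. Their ratios were 1.85, 1.59 and 1.55. These regions share a gene and are not independent.

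In the RNA binding and processing group the ratios ran from 1.502 to 2.29. A serine/arginine rich splicing factor (Solyc01g105140), of a family that marks exons for splicing, had 2.80, 2.47 and 3.06 at 39 DPA, 2.79, 2.88 and 2.18 at 42 DPA, and 6.75, 5.92 and 6.44 in Cnr. All wild-type values were low and similar and the Cnr values were close together. A KH domain protein (Solyc02g067210) followed among regions on the floor with a ratio of 1.93. Regulator of nonsense transcripts 3A (Solyc10g044450), a factor of the decay of transcripts with an early stop codon, was among the more enriched members, with 13.5 ± 0.83, 14.6 ± 1.48 and 22.6 ± 4.06 (SD, n = 3 each). A region in the 5′ UTR class touched SMG1 (Solyc01g109080), a kinase of the same decay pathway in animals, and a kinesin gene, with a ratio of 1.62.

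Some members of small RNA pathways were noticed after their values had been seen. Argonaute 1 (Solyc06g072300), which cuts targets of microRNAs, had 4.81, 4.06 and 4.82 at 39 DPA, 4.89, 5.26 and 4.48 at 42 DPA, and 8.74, 7.67 and 8.69 in Cnr. The stages overlapped and the ratio was 1.72, with an IP number higher by 1.04 and a background higher by 0.26 than at 42 DPA. SUPPRESSOR OF GENE SILENCING 3 (Solyc09g076040), which in Arabidopsis helps to make double-stranded RNA, had 8.33 ± 0.44, 8.78 ± 1.35 and 15.6 ± 1.68 (SD, n = 3 each), a ratio of 1.77. A region between Ethylene Response Factor F.3 (Solyc07g049490) and Argonaute 6 (Solyc07g049500) had a ratio of 1.80, and was the only described member that matched hormone terms.

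The ubiquitin group, which tags proteins for breakdown, held RING/U-box proteins, F-box proteins and conjugating enzymes, with ratios of 1.55 to 2.24. Solyc07g053850, a RING/U-box protein, had 4.91, 3.64 and 4.52 at 39 DPA, 4.25, 3.11 and 3.85 at 42 DPA, and 10.8, 6.64 and 11.9 in Cnr. Cnr replicate 2 was far below the other Cnr libraries here but still above wild type. Solyc02g014170, of the same description, had a ratio of 2.04, and the ubiquitin-conjugating enzymes Solyc02g087750 and Solyc12g099310 had 1.92 and 1.89.

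Among transcription factors, GTE10 shared a region with a ketoacyl ACP reductase gene (Solyc03g111090 with Solyc03g111080, ratio 1.71). A Myb factor (Solyc01g106940, 1.70), a zinc finger factor (Solyc06g072720, 1.63), a bZIP factor (Solyc10g076920, 1.595), a GATA factor (Solyc06g060940, 1.59) and GTE1 (Solyc09g015660, 1.59) completed the group with FUL2, GTE4, Ethylene Response Factor F.3 and the AGAMOUS-like gene. Kinases had ratios of 1.53 to 2.08. They included a leucine-rich repeat receptor-like kinase (Solyc01g107250, 1.87), with 4.35, 3.91 and 4.32 at 39 DPA, 4.59, 4.34 and 3.39 at 42 DPA, and 8.03, 6.75 and 8.72 in Cnr. The only phosphatase group member was a protein phosphatase 2C (Solyc03g121880), of a family whose members in Arabidopsis include brakes on abscisic acid signalling, with 3.30 ± 0.64, 3.72 ± 0.41 and 6.55 ± 0.37 (SD, n = 3 each).

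Transport and membrane traffic were represented by single genes. Vacuolar glucose transporter 2 (Solyc03g096950), which moves sugar into the vacuole, had 7.50, 7.34 and 8.66 at 39 DPA, 8.70, 8.56 and 7.36 at 42 DPA, and 17.2, 14.3 and 17.7 in Cnr, a ratio of 1.9994. A phosphate transporter (Solyc09g031705) and an ABC transporter (Solyc06g048540) had 1.90 and 1.61. The coatomer epsilon subunit (Solyc02g030250), part of the coat of Golgi vesicles, was strongly enriched throughout, with 11.1 ± 0.74, 9.68 ± 0.81 and 20.5 ± 2.65 (SD, n = 3 each). An ADP-ribosylation factor (Solyc03g043960), the GTPase that recruits such coats, had a ratio of 1.65.

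The chromatin group had ratios of 1.57 to 1.79. A DNA glycosylase (Solyc02g005310), of the enzyme class that removes damaged or modified bases, had 4.20, 5.01 and 5.48 at 39 DPA, 5.43, 5.82 and 4.90 at 42 DPA, and 9.96, 7.73 and 11.2 in Cnr, a ratio of 1.79. Histone deacetylase HDT1 (Solyc10g085560) had 8.91 ± 0.69, 7.62 ± 0.92 and 14.0 ± 1.301 (SD, n = 3 each), and 2 histone-lysine N-methyltransferase genes (Solyc01g005385 in a shared region, and Solyc06g083760) had a ratio of 1.58 each. Genes that matched the cell wall terms lay in shared regions, of a pectate lyase with the FACT subunit SSRP1 (Solyc02g087705 with Solyc02g087710, 1.61) and of an expansin-like gene with an isocitrate dehydrogenase gene (Solyc08g077910 with Solyc08g077920, 1.503). Cell wall invertase 2 (Solyc08g065310), which splits sucrose outside the cell and is no part of that list, had a ratio of 2.01. Besides the photosystem II gene, 5 further regions matched chloroplast terms, with ratios from 1.52 to 1.83. The highest of these was the beta subunit of acetyl-CoA carboxylase (Solyc02g067975), which starts fatty acid synthesis, with 7.02 ± 0.89, 6.65 ± 0.82 and 12.8 ± 2.69 (SD, n = 3 each).

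Other peaks on the same transcripts did not always follow. In genes with a member that touched no other gene, 13 further regions in 11 genes had a peak in all 9 lists. Of these, 2 were members themselves, both in the S4 gene and each counted beside the other. In all, 5 had every Cnr value above all wild-type values (all regions 34.2%), and 8 had a ratio over 1 (all regions 76.5%). The median ratio of the 13 was 1.14, against 1.19 over all regions. Of the 13, 4 lay inside the coding sequence, where the median over all regions was 0.965. No test was made on so few regions. In Solyc06g007660 the region over the stop codon had a ratio of 1.86 and a region inside the coding sequence 0.782. In Solyc09g010460 the region over the stop codon had 1.51, while those inside the coding sequence had 0.712 and 0.809. In Solyc01g090880 the region in the 3′ UTR had 1.64 and that over the stop codon 0.613, with 9.08 at 39 DPA, 6.61 at 42 DPA and 5.56 in Cnr. In the splicing factor gene Solyc01g105140 the 3′ UTR region had 2.29 and a region on an intron 1.14. The further region was the higher one in Solyc03g083200, with 2.37 against 1.90 in the member, and in Solyc01g094570, with 1.66 against 1.58.

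The members were also read after each library had been centred on its own median over the 7836 regions, which takes away the general shift of the Cnr libraries. Their median ratio was then 1.28 (all regions 0.923), and 605 kept every Cnr value above all wild-type values, against 14.9% of all regions. The members had been chosen on the same 9 lists before centring. These differences from all regions are thus in large part built into the choice and have no test. The complete rule was then met by 92 regions, of which 83 were members. These 83 had uncentred ratios of 1.89 to 3.36 and a wild-type median at 42 DPA of 4.54, against 5.92 in the other 630. The centred rule keeps mostly large ratios, so contrasts of the 83 with the other members can follow from the choice and have no test. Their background was on the floor in all 9 lists in 50 (60.2%; the other members 44.6%) and above it in all 9 in 10 (12.05%; the other members 32.5%). They began in the 3′ UTR in 28 (33.7%; the other members 23.3%) and ran over the stop codon into the 3′ UTR in 29 (34.9%; the other members 51.4%). Of the 177 described members, 22 were among the 83. They included the photosystem II and recA region, the VPS2 homologue, the DnaJ gene Solyc12g009440, the splicing factor and GTE4 with malate dehydrogenase. Solyc03g098230, ribosomal protein S8 and vacuolar glucose transporter 2 were also among them. FUL2, the chaperonins and Argonaute 1 did not meet the complete rule after centring.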

How the data were processed

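The deposited files were 9 peak lists, 1 for each IP library with its input as control, called by the authors with MACS at a false discovery rate of 0.05. Reads had been trimmed (cutadapt 1.16, Trimmomatic 0.30) and aligned with BWA to build SL3.0, and unique alignments were kept, so copies of near-identical genes can be missing. Replicates were not pooled. The deposited unit used was MACS fold enrichment, a ratio of IP over local background. The −log10 p of each summit served to recover both numbers, and the deposited −log10 q served as a filter only. The peak score deposited by the authors is 10 times the −log10 q and served to identify columns. IP numbers came out whole within 0.1 for 99.9% of summits.

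Members and gene lists were chosen with earlier results of these data known, and no test was made, since the rule used every list. Named are the 12 regions with the largest ratio, the 6 largest whose background was above the floor in every list, members of the ripening list of 46 genes, the first 3 of each of 13 keyword groups matched on the study's gene descriptions, and 3 regions on each side of a limit. The remaining named genes, among them those with extreme background or IP differences, were chosen after their values were seen, and the keyword patterns were corrected after seeing the matches. Alternatives were other scales, merging, summit choice, filters, folds, bands, missing peaks and leaving out each library. Recovery and rule were tested on simulated data. RNA sequence under the peaks was not analysed here. Python 3.11.15, pandas 2.3.3 and scipy 1.17.1 were used.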

Additional observations from a re-analysis of the deposited data

How the results depend on the processing

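The number of regions that met the rule depended most on the scale and the fold minimum. From 713 it became 92 after centring each library, 1496 with a fold minimum of 1.3, 68 with a minimum of 2, and 215 when only regions above the floor in every list were kept. Leaving out 1 library gave 477 to 1320 regions. The 1320 came without Cnr replicate 2 and held 710 of the 713, and the 477 came without Cnr replicate 3. The share of held-out regions at least 1.5 times both wild-type values moved as well. For replicate 1 it was 58.3% after centring and 47.7% and 95.3% with fold minimums of 1.3 and 2 in the choice. For replicate 2 these were 43.0%, 6.91% and 58.7%, and for replicate 3 they were 58.5%, 65.4% and 100%. The cause of these moves beyond the changed limits was not tested. The other alternatives for the number of regions stayed within 1.5 times of it. Among the 45 named regions the log2 ratio was lowest after centring, at 0.23, and the rule leaves little room for a change of direction. No paired analysis was possible because the values come from no test. With 3 libraries a group and 1 peak list each, differences within the spread between libraries cannot be told apart.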
